A study of Macaca mulatta with 24 samples.

Results

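The colon surface is lined by mature absorptive colonocytes, cells that leave the crypt, stop dividing, build a brush border and take up salt, water and short fatty acids. They also release guanylin and uroguanylin, small peptides that bind guanylate cyclase C on the luminal face of the epithelium and raise cyclic GMP, which slows sodium uptake and drives chloride secretion. Because surface cells are replaced from dividing crypt cells within days, radiation that stops division is known to thin the surface layer before it is rebuilt.

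The set followed here had 9 named genes of this mature surface state, out of the 13457 genes with a named probe in the fit: GUCA2A and GUCA2B (guanylin and uroguanylin), CHP2 (a calcineurin-like cofactor of sodium-proton exchangers), PCK1 and PDK4 (a gluconeogenic enzyme and a brake on pyruvate oxidation), TMIGD1 and MS4A12 (membrane proteins of differentiated epithelium), and CDHR5 and VIL1 (a brush border cadherin and villin, which bundles microvillar actin). All probes whose symbol was one of these names were taken, 14 in all, and all 14 entered the fit. The names were selected on earlier results of the same arrays for a fall on day 4 with return by days 7 and 12, so their levels against controls are given as description and without a test. Only the difference between the doses was tested for them. The genes were not selected on this difference, but the selection used values of the same irradiated animals, so these tests are not independent of it.

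The arrays held whole colon tissue of 24 young-adult male rhesus macaques (Macaca mulatta), 1 animal per array and no pooling. Unirradiated controls (n = 4) are labelled day 4 and serve for every day. The other animals received 1 total-body dose of cobalt gamma radiation: 6.7 Gy with tissue on day 4 (n = 4), day 7 (n = 4) or day 12 (n = 2), and 7.4 Gy on day 4 (n = 4), day 7 (n = 4) or day 12 (n = 2). Days 7 and 12 therefore have no controls of their own, and the day and any drift between days cannot be told apart there.

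Between 66.6% and 84.8% of probes were well above background per array. The 75th percentile of signal, the level to which each array was scaled, lay between 551 and 964 units. The array of 6.7 Gy day 12 replicate 1 had 712 spots marked as uneven against 24 to 153 on the others, and these spots were left out. Whole tissue holds many cell types, so a lower level of a surface gene can mean fewer surface cells or less of its RNA per cell, and these cannot be told apart here.

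On day 4 the genes did not move as 1 group. By their brightest probes, 6 of them lay below every control animal after 6.7 Gy, and these and CDHR5 did so after 7.4 Gy. MS4A12 overlapped the control range, and PDK4 lay above every control on both doses. By the same rule of no overlap, 8.64% of all 13457 genes lay below every control and 9.02% above after 6.7 Gy on day 4, and 12.6% below and 13.4% above after 7.4 Gy. In the limma fit, 1.89% of all genes were called lower and 2.36% higher at 6.7 Gy on day 4, and 3.99% lower and 4.24% higher at 7.4 Gy, where a call is a limma adjusted p under 0.05 with at least 2-fold change. Since the 9 were selected on these values, nothing is read from their counts beside those of all genes. PDK4 and MS4A12 did not show the day 4 fall for which the set was named and are described by their own values.

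**Figure D1:**
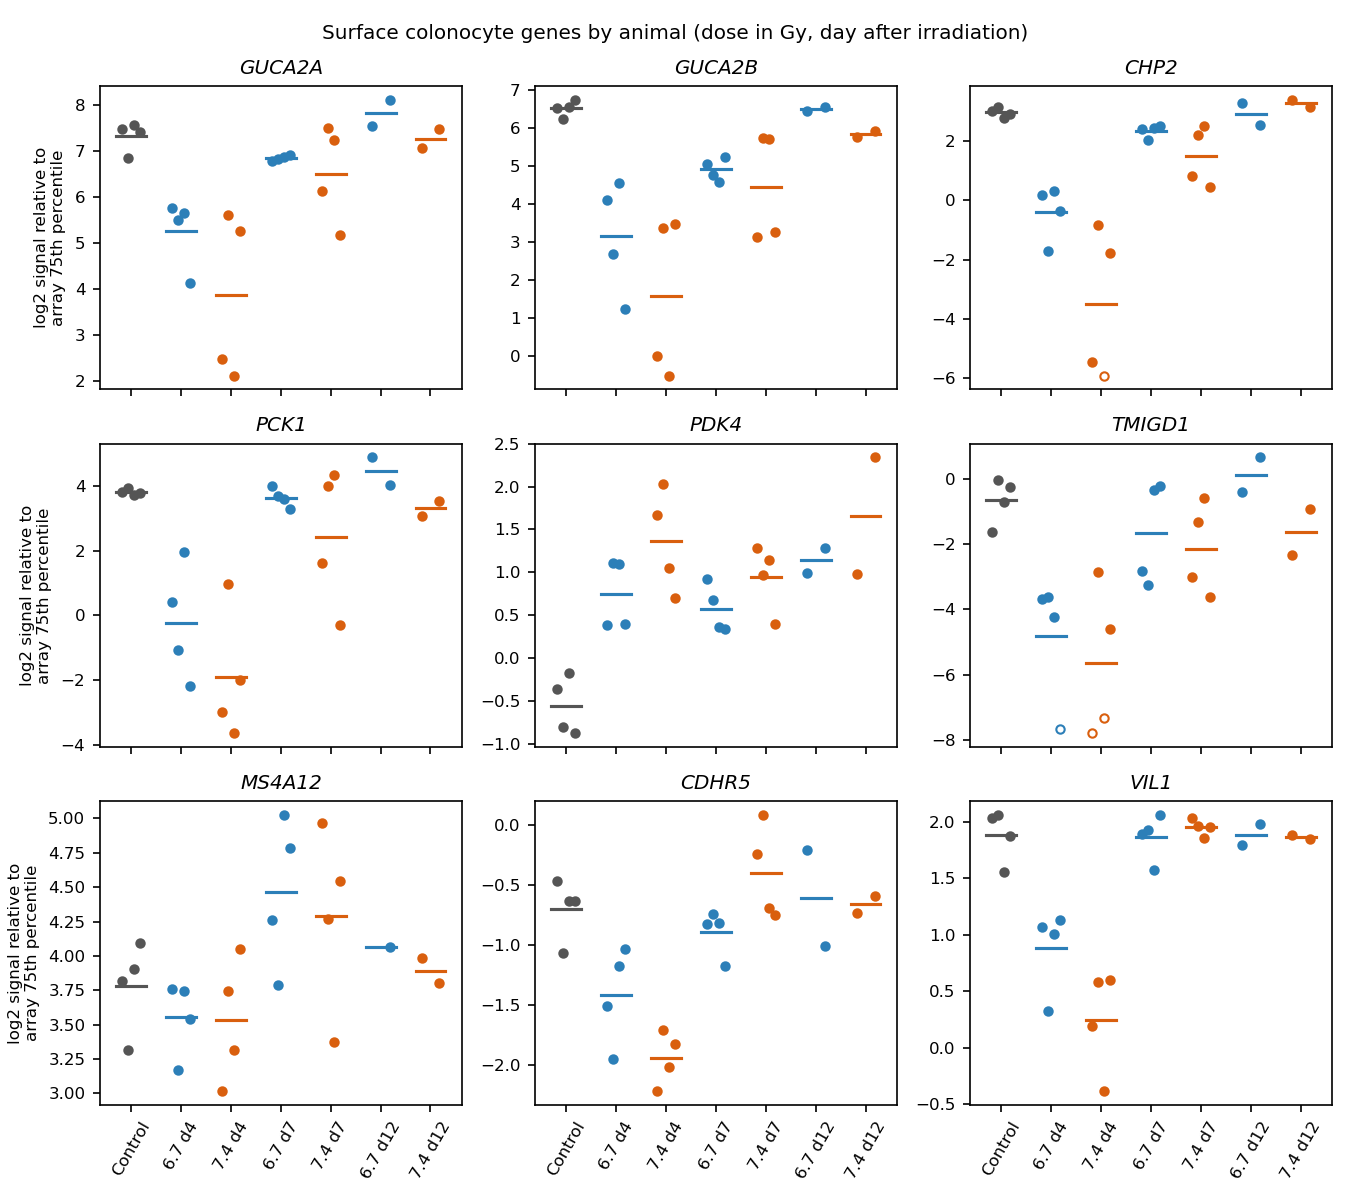
Level of each of the 9 genes in each animal, as log2 signal relative to the array's 75th percentile (probe of highest mean signal for each gene; grey, controls; blue, 6.7 Gy; orange, 7.4 Gy; d, day). Points are animals, open points were not well above background, and bars are group means; 7 genes sit lowest on day 4, while PDK4 stands above the controls in all 6 irradiated groups and MS4A12 overlaps them in all 6.

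GUCA2A encodes guanylin, the peptide released into the colon lumen. In the 4 controls its log2 signal relative to the array's 75th percentile was 7.49, 6.85, 7.58 and 7.42. On day 4 it read 5.77, 5.51, 5.66 and 4.13 after 6.7 Gy and 2.48, 5.61, 2.11 and 5.27 after 7.4 Gy. All 8 irradiated animals were below the lowest control, and 7.4 Gy replicates 1 and 3 were far below the other 6. The means were 4.19-fold and 11.1-fold lower than control. On day 7 it read 6.80, 6.82, 6.88 and 6.91 after 6.7 Gy and 6.12, 7.505, 7.24 and 5.17 after 7.4 Gy. The 6.7 Gy animals lay in a narrow band around the lowest control, while at 7.4 Gy replicates 1 and 4 were still below all controls and the other two were inside their range. On day 12 it read 7.55 and 8.12 after 6.7 Gy and 7.07 and 7.48 after 7.4 Gy, which overlapped the controls.

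GUCA2B encodes uroguanylin and is the next gene to GUCA2A in the RefSeq table of assembly T2T-MMU8v2.0, with 0 genes listed between them. Its brighter probe read 6.51, 6.23, 6.56 and 6.73 in controls. The day 4 values were 4.10, 2.69, 4.55 and 1.23 after 6.7 Gy and -0.01, 3.37, -0.52 and 3.47 after 7.4 Gy. The fall was deeper than that of GUCA2A, 10.3-fold and 30.5-fold, and the same 7.4 Gy replicates were lowest. Day 7 values were 5.06, 4.76, 4.58 and 5.23 after 6.7 Gy and 3.12, 5.72, 5.69 and 3.25 after 7.4 Gy. All 8 animals were still below every control, so GUCA2B had regained 52.5% of its log2 fall after 6.7 Gy and 58.2% after 7.4 Gy, against 76.6% and 76.2% for GUCA2A. By day 12 the values were 6.45 and 6.55 after 6.7 Gy, inside the control range, and 5.76 and 5.93 after 7.4 Gy, both below it. The second probe gave folds of 10.1 and 29.6 on day 4.

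The guanylin pair tracked each other closely. Over the 24 arrays the levels of GUCA2A and GUCA2B had a Pearson r of 0.97, and the deviations of animals from their own group means had an r of 0.93, the highest of the 36 pairs among the 9 genes. Both values describe genes chosen for a shared pattern, measured on the same arrays, and carry no test.

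CHP2 binds sodium-proton exchangers and resembles the calcium-binding subunit of calcineurin. Its brighter probe read 3.02, 3.14, 2.78 and 2.91 in controls. On day 4 it read 0.17, -1.70, 0.33 and -0.35 after 6.7 Gy and -5.45, -0.82, -5.90 and -1.76 after 7.4 Gy, the value of replicate 3 not being well above background. Every irradiated animal was below every control, and the mean at 7.4 Gy was 1.15% of the control level against 9.80% at 6.7 Gy. The mean at 7.4 Gy was thus 87.1-fold lower (log2 -6.44, -7.20 to -5.35 over the other settings and -7.33 to -5.64 on leaving out 1 animal), and the second probe, which was not well above background in replicates 1 and 3, gave 92.8-fold. On day 7 it read 2.42, 2.03, 2.44 and 2.49 after 6.7 Gy and 0.84, 2.21, 2.51 and 0.43 after 7.4 Gy, all 8 below the lowest control on this probe, whereas the second probe overlapped the controls at both doses. On day 12 the brighter probe read 3.27 and 2.54 after 6.7 Gy and 3.39 and 3.15 after 7.4 Gy. At the lower dose 1 animal lay on each side of the control range, and at the higher both lay just above it. The second probe overlapped the controls at both doses.

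PCK1 makes phosphoenolpyruvate from oxaloacetate. It read 3.82, 3.94, 3.72 and 3.77 in controls, the tightest of the 9 genes with an SD of 0.09. The day 4 values were 0.43, -1.08, 1.95 and -2.20 after 6.7 Gy and -2.98, 0.97, -3.65 and -2.01 after 7.4 Gy. No irradiated animal reached the controls and the animals were widely spread, with SDs of 1.81 and 2.04. The means were 16.4-fold and 53.0-fold lower. Day 7 values were 3.99, 3.69, 3.59 and 3.28 after 6.7 Gy and 1.62, 3.99, 4.34 and -0.30 after 7.4 Gy. The 6.7 Gy group had regained 95.7% of its log2 fall, the largest share among the 5 genes that fell over 4-fold at that dose, whereas the 7.4 Gy animals were split, replicates 1 and 4 far below the controls and replicates 2 and 3 above them. By day 12 the values were 4.88 and 4.03 after 6.7 Gy, above every control, and 3.08 and 3.54 after 7.4 Gy, below every control.

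PDK4 phosphorylates pyruvate dehydrogenase and so limits the burning of pyruvate, and it is known to rise with fasting and with fatty acids. Its brighter probe read -0.36, -0.80, -0.18 and -0.88 in controls. On day 4 it read 0.391, 1.108, 1.101 and 0.393 after 6.7 Gy and 1.67, 2.03, 1.05 and 0.70 after 7.4 Gy. These values went the other way from the rest: all 8 animals lay above all controls, by 2.46-fold and 3.77-fold in the mean. On day 7 it read 0.92, 0.68, 0.36 and 0.34 after 6.7 Gy and 1.28, 0.97, 1.14 and 0.39 after 7.4 Gy. On day 12 it read 0.998 and 1.28 after 6.7 Gy and 0.98 and 2.34 after 7.4 Gy. No irradiated animal of any day came down to the control range, and the day 12 means were 3.23-fold and 4.63-fold above control. The dimmer probe gave changes of like size, 2.53-fold and 3.86-fold on day 4, but its controls were spread (SD 1.06) and overlapped the irradiated animals in 5 of the 6 groups.

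TMIGD1 is an adhesion protein of the immunoglobulin family found on mature epithelium. It read -1.61, -0.03, -0.71 and -0.24 in controls. The day 4 values were -3.67, -3.63, -4.23 and -7.68 after 6.7 Gy and -7.80, -2.86, -7.32 and -4.61 after 7.4 Gy. Every irradiated animal lay below the controls, and 3 of the 8, 6.7 Gy replicate 4 and 7.4 Gy replicates 1 and 3, were no longer well above background. With those dim values as measured, the group means were 17.8-fold and 32.0-fold lower (log2 -4.15 and -5.00). These sizes depended on the processing: they were -2.51 and -2.71 with normexp background correction, -2.70 at 7.4 Gy with array position as a block, and -4.55 to -3.19 and -5.93 to -4.28 on leaving out 1 animal. Day 7 values were -2.81, -3.26, -0.32 and -0.19 after 6.7 Gy and -3.01, -1.32, -0.59 and -3.61 after 7.4 Gy. Each dose had animals within the control range beside animals well below it. By day 12 the values were -0.39 and 0.67 after 6.7 Gy and -2.31 and -0.90 after 7.4 Gy, and both groups overlapped the controls.

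MS4A12 is a colon-restricted member of the MS4A family of membrane proteins. It read 3.82, 3.31, 3.90 and 4.10 in controls. On day 4 it read 3.76, 3.17, 3.74 and 3.54 after 6.7 Gy and 3.02, 3.75, 3.31 and 4.05 after 7.4 Gy. The groups overlapped throughout, with mean levels of 85.2% and 84.0% of control, so the day 4 fall of the other surface genes was not seen for its single probe. On day 7 it read 4.26, 3.79, 5.02 and 4.78 after 6.7 Gy and 4.96, 4.27, 3.37 and 4.55 after 7.4 Gy, which reached above the controls in several animals. On day 12 it read 4.07 in 6.7 Gy replicate 2, the spot of replicate 1 having been left out as uneven, and 3.98 and 3.80 after 7.4 Gy.

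CDHR5 is a cadherin that ties neighbouring microvilli together at their tips. Its brightest probe read -0.47, -1.07, -0.63 and -0.64 in controls. The day 4 values were -1.51, -1.95, -1.18 and -1.03 after 6.7 Gy and -2.22, -1.71, -2.02 and -1.82 after 7.4 Gy. The 6.7 Gy animals touched the control range in replicate 4, and the 7.4 Gy animals lay wholly below it, the means being 1.64-fold and 2.36-fold lower. The 3 probes disagreed at 6.7 Gy, with log2 changes of -0.72, 0.06 and -0.51 in order of brightness, and went 1 way at 7.4 Gy, with -1.24, -0.74 and -1.11, though the second probe overlapped the controls there and the third was well above background in 1 of those 4 animals. On day 7 the brightest probe read -0.83, -0.75, -0.82 and -1.18 after 6.7 Gy and -0.24, 0.08, -0.69 and -0.75 after 7.4 Gy, inside or above the control range except for 6.7 Gy replicate 4. By day 12 the values were -0.21 and -1.01 after 6.7 Gy and -0.73 and -0.59 after 7.4 Gy, with group means at 106% and 103% of control.

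VIL1 encodes villin. It read 2.03, 2.06, 1.56 and 1.87 in controls. On day 4 it read 1.07, 0.32, 1.01 and 1.13 after 6.7 Gy and 0.19, 0.58, -0.38 and 0.60 after 7.4 Gy. The groups did not overlap with the controls, and 50.01% and 32.2% of the control level was left, a shallow fall beside those of the secreted peptides and CHP2. Day 7 values were 1.90, 1.93, 1.57 and 2.06 after 6.7 Gy and 2.04, 1.96, 1.86 and 1.96 after 7.4 Gy. All 8 animals were back inside the control range. On day 12 it read 1.79 and 1.98 after 6.7 Gy and 1.89 and 1.85 after 7.4 Gy.

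Set beside each other on day 4, PCK1, GUCA2B and CHP2 had larger mean changes than GUCA2A at both doses, VIL1 and CDHR5 had smaller ones, MS4A12 was near 0 and PDK4 was above 0. TMIGD1 stood with the first 3 as measured, but with normexp correction or with array position as a block its change at 7.4 Gy was smaller than that of GUCA2A. With values not above background taken as measured, the lowest gene of an animal was PCK1 or TMIGD1 in all 4 animals of 6.7 Gy and CHP2 in 3 of 4 of 7.4 Gy, PCK1 being lowest in replicate 4. The median log2 change over the 9 genes was -2.07 at 6.7 Gy and -3.47 at 7.4 Gy, while the median over all 13457 genes was -0.04 and -0.02.

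By day 7 the median over the 9 genes was -0.19 at 6.7 Gy and -0.83 at 7.4 Gy. By their brightest probes, CHP2 and GUCA2B were the 2 genes with every animal below every control, at both doses, and PDK4 the 1 gene above. The second probes of CHP2 and PDK4 overlapped the controls at both doses. Among all genes 4.05% lay below every control and 4.08% above after 6.7 Gy on day 7, and 2.98% and 3.71% after 7.4 Gy. In the limma fit 0.223% were called lower and 0.163% higher after 6.7 Gy on day 7, and 0.29% and 0.208% after 7.4 Gy. By day 12 the medians were 0.28 and -0.02. After 6.7 Gy no gene lay below all controls and PCK1 and PDK4 lay above them, where 5.87% of all genes lay below and 12.8% above. After 7.4 Gy PCK1 and GUCA2B lay below and CHP2 and PDK4 above by their brightest probes, where 8.36% of all genes lay below and 7.84% above. The second probes of CHP2 and PDK4 overlapped the controls there. The limma fit called 0.0149% of all genes lower and 0% higher after 6.7 Gy on day 12, and 0.00743% in each direction after 7.4 Gy. With 2 animals a group on day 12, such separation is a weak description.

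**Figure D2:**
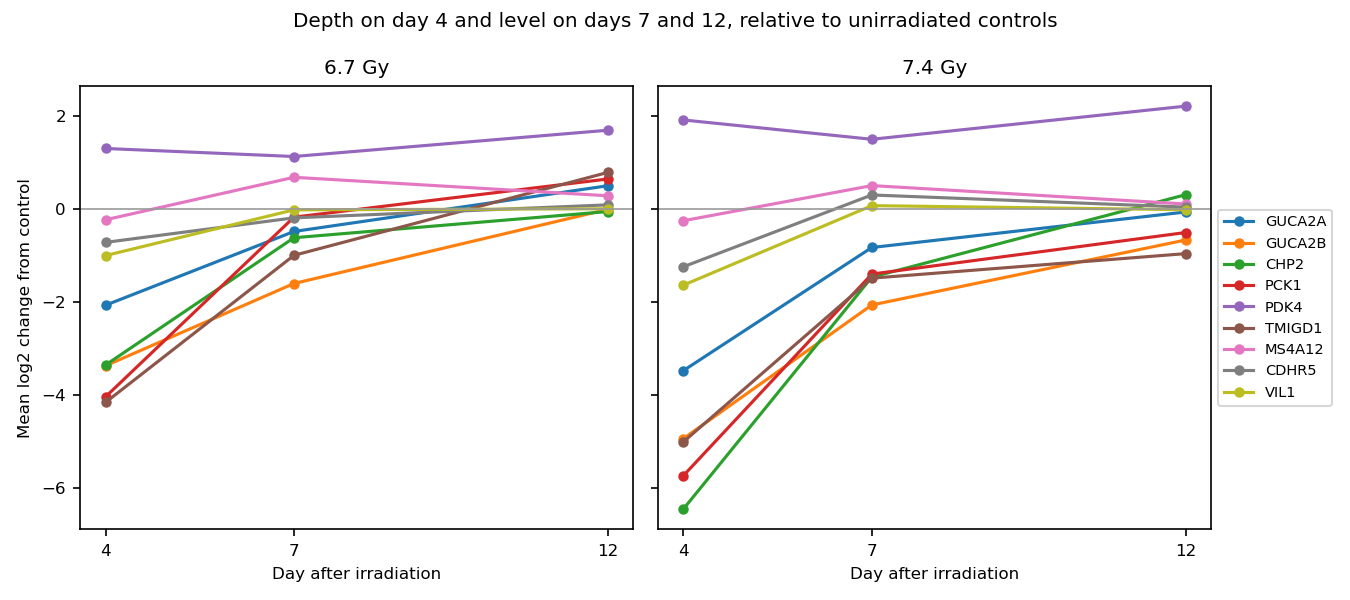
Mean log2 change from control of each gene (probe of highest mean signal) by day, 6.7 Gy left and 7.4 Gy right; lines join group means of different animals. With values not above background taken as measured, CHP2, PCK1, TMIGD1 and GUCA2B lie lowest on day 4 at both doses, GUCA2B is the lowest gene on day 7 at both doses, and PDK4 stays above 1 throughout.

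The animals of 1 group differed in how far the set had fallen. On day 4 after 7.4 Gy the median change over the 9 genes was -4.86 in replicate 1, -1.73 in replicate 2, -5.23 in replicate 3 and -2.07 in replicate 4. The first and the third were thus lower than all 4 animals of 6.7 Gy (-1.56, -1.82, -1.68 and -3.20), and the other two lay within that range. On day 7 after 7.4 Gy the medians were -1.21, 0.17, -0.02 and -2.17, so that replicates 1 and 4 were below every 6.7 Gy animal of that day (-0.12, -0.12, -0.22 and -0.42) and the other two were near the control level. These are different animals on each day, and replicate numbers carry no link between days.

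General epithelial markers differed little between these animals. The mean log2 change of the 10 such genes measured (among them EPCAM, KRT8 and KRT19) on day 4 after 7.4 Gy was -0.56, -0.73, -0.67 and -0.49 in replicates 1 to 4. The other surface genes described further on differed in the same order as the 9, with means of -2.80, -1.07, -2.93 and -1.64. On day 7 after 7.4 Gy the epithelial means were 0.17, 0.04, -0.11 and 0.13. Neutrophil markers (S100A8, S100A9 and CSF3R) varied as well, with means of 1.37, 1.53, 3.57 and 0.74 on day 4 after 7.4 Gy, the highest in replicate 3. CSF3R did not share the rise of the other markers, with a group change of -0.42. The part of neutrophils in the depth of the fall was not tested.

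**Figure D3:**
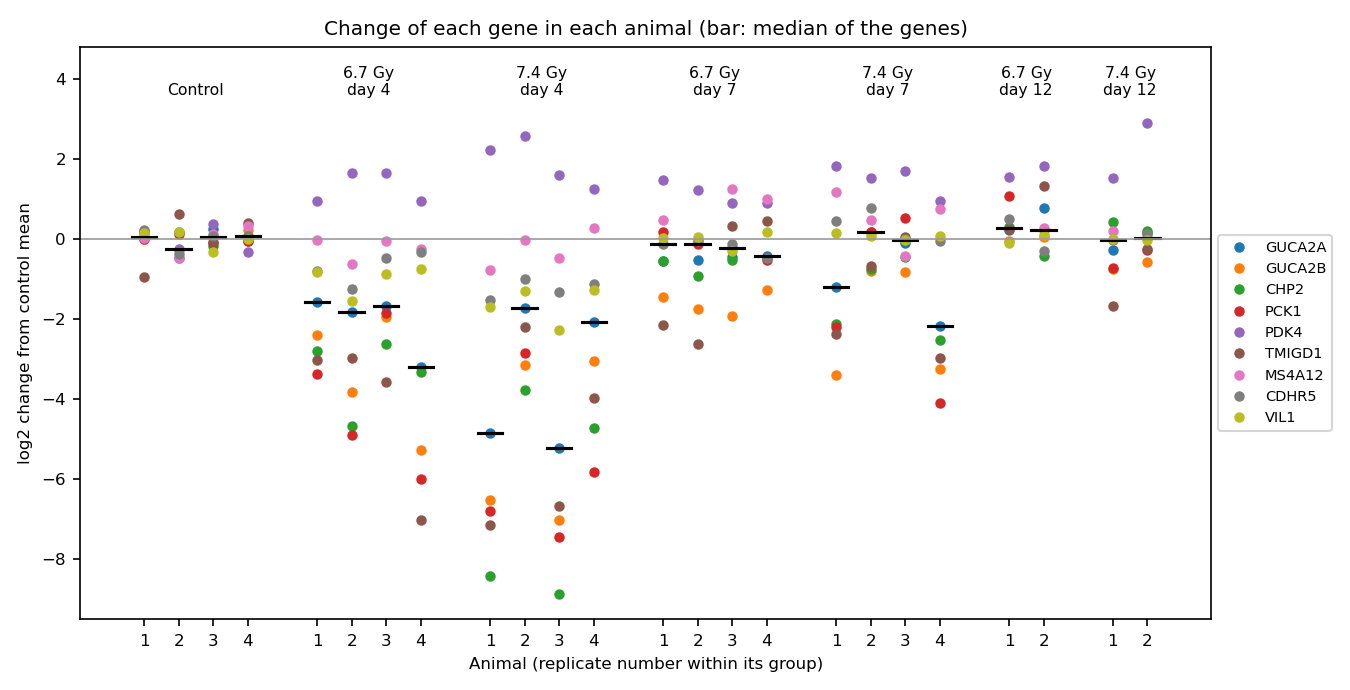
Log2 change of each gene from the control mean in each of the 24 animals, with a bar at the median of the genes. Medians of -4.86 and -5.23 in 7.4 Gy day 4 replicates 1 and 3 stand apart from -1.73 and -2.07 in replicates 2 and 4, and PDK4 is the top point in every animal of day 4.

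Arrays were spread over 6 slides of 4 and 2 scan days, and groups also differ in array position on the slide. All animals of 7.4 Gy on day 4 and all of day 12 were scanned on the same scan day. The controls and the 6.7 Gy animals of day 4 were split between the 2 scan days. All 4 controls sat in position 1 and the day 4 animals in positions 1 and 2, a partial confounding. All animals of days 7 and 12 sat in positions 3 and 4, so position and the change from control cannot be told apart there. Within a slide the day 4 animal was lower than the control in the median gene on each of the 4 slides that held both. The median differences were -1.83 and -2.72 on the log2 scale for 6.7 Gy, and -5.104 and -1.82 for 7.4 Gy. On these slides the control sat in position 1 and the day 4 animal in position 2. Position and the change thus cannot be told apart within a slide. As the genes were selected on this fall, these differences are a description. Slides 5 and 6 held 1 animal of each dose on day 4 and no control, the 6.7 Gy animal in position 1 and the 7.4 Gy animal in position 2. The median difference between doses, 7.4 minus 6.7 Gy, was -3.65 on slide 5 and -0.06 on slide 6, with 8 and 5 of the 9 genes lower at the higher dose.

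Whether the dose changed the depth was not the ground of the selection, though its test uses the same day 4 animals. On day 4 the level at 7.4 Gy was lower than at 6.7 Gy for 12 of the 14 probes and 8 of the 9 genes, PDK4 being the exception. The median difference over all 13457 genes was -0.01, and the share of all probes lower at 7.4 Gy was not counted. Probes of a gene, and genes in the same animals, are not separate evidence, so these counts are a description. None of the 14 probes was called, and neither was any other probe of the 38200 tested (0%), while 440 probes differed at least 2-fold with p under 0.05 before adjustment, and the methods' t-test called 0. The largest difference was that of CHP2. At 7.4 Gy it was 8.54-fold lower (log2 difference -3.09, 95% interval -4.80 to -1.38) with an unadjusted limma p of 0.00121 and an adjusted p of 0.469, and its second probe gave -3.17. Leaving out each of the 8 animals in turn gave -3.98 to -2.29, and the adjusted limma p ran from 0.0857 to 0.944 over all alternatives. The CHP2 difference rested mostly on 7.4 Gy replicates 1 and 3, since replicate 2 lay within the 6.7 Gy range and replicate 4 just below it. With normexp correction the CHP2 changes from control were -3.32 at 6.7 Gy and -5.35 at 7.4 Gy, in place of -3.35 and -6.44.

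The secreted peptides had smaller differences. GUCA2A was 2.65-fold lower at the higher dose (log2 -1.40, interval -2.74 to -0.07, adjusted limma p of 0.798). GUCA2B was 2.96-fold lower (log2 -1.56, interval -3.32 to 0.19, adjusted limma p of 0.836). Both differences rested on replicates 1 and 3 of 7.4 Gy, since replicates 2 and 4 lay within the 6.7 Gy range.

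Among the remaining genes, the brush border pair had small differences with narrow intervals. VIL1 was 1.55-fold lower at 7.4 Gy (log2 -0.64, interval -1.06 to -0.21, unadjusted limma p of 0.00539, adjusted 0.567). The brightest CDHR5 probe was 1.44-fold lower (log2 -0.52, interval -0.99 to -0.05, adjusted limma p of 0.769), and the others gave -0.79 and -0.60. With array position as a block, the second CDHR5 probe was called (log2 -1.44, adjusted limma p of 0.0469, range 0.0469 to 0.998 over the alternatives), as were 94 probes in all. All 4 animals of 7.4 Gy on day 4 sat in position 2 of their slide and 6.7 Gy animals in positions 1 and 2.

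PCK1 (log2 -1.69, interval -3.74 to 0.35) and TMIGD1 (-0.85, interval -3.08 to 1.39) had wide intervals, whose lower ends stand for levels 13.3-fold and 8.47-fold lower at 7.4 Gy. PDK4 was 1.53-fold higher at 7.4 Gy (log2 0.61, interval -0.04 to 1.27, adjusted limma p of 0.827). For MS4A12 the difference was -0.02 with an interval of -0.68 to 0.64, which bounds any dose effect on this probe to about 1.60-fold in either direction.

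**Figure D4:**
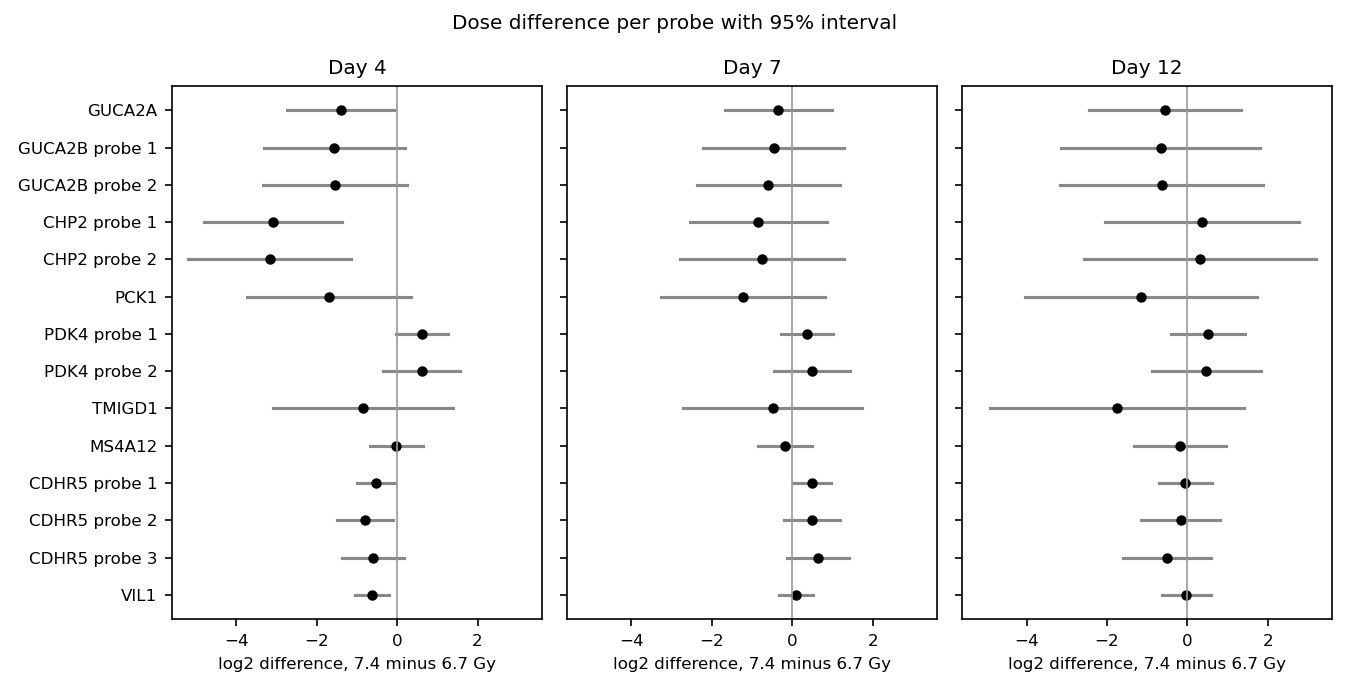
Difference between doses (7.4 minus 6.7 Gy, log2) for each of the 14 probes on days 4, 7 and 12, with the 95% interval of the limma fit; a negative value means a lower level at 7.4 Gy. On day 4, 12 of 14 points lie below 0, on day 7 the 3 CDHR5 probes lie above 0, and the intervals are widest on day 12, where each dose has 2 animals.

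On day 7 the level at 7.4 Gy was lower for 8 of the 14 probes, with differences from -1.22 (PCK1) to 0.64 (CDHR5 probe 3). The median difference over all 13457 genes was 0.02. No probe of any gene was called (0% of 38200; 172 before adjustment, and 1 by the methods' t-test). All 3 CDHR5 probes were higher at 7.4 Gy, by 0.49, 0.50 and 0.64 (intervals 0.02 to 0.96, -0.19 to 1.19 and -0.13 to 1.41). On day 12 differences ran from -1.75 (TMIGD1) to 0.52 (PDK4 probe 1), with intervals reaching from -4.90 to 3.20 over the probes, and no probe was called (0%; 453 before adjustment, 0 by the methods' t-test).

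Whether the doses differed in their return was asked by setting the dose difference of a later day against that of day 4. From day 4 to day 7, 1 probe of 38200 was called (0.00262%; 562 before adjustment), not of these genes. For CDHR5 the dose difference moved up by 1.02, 1.29 and 1.24 on its 3 probes (unadjusted limma p of 0.00475, 0.0124 and 0.0274), each with an adjusted p of 0.995. VIL1 moved by 0.73 (unadjusted limma p of 0.0202, adjusted 0.995), and CHP2 by 2.25 (interval -0.17 to 4.67). From day 4 to day 12 no probe was called (0%; 577 before adjustment), and CHP2 had the largest shifts, its brighter probe moving by 3.46 (interval 0.50 to 6.42, adjusted limma p of 0.9995).

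Genes that act beside the 9 were taken from lists by role. These lists were drawn up with earlier results of these data known, so their counts describe and give no independent evidence. Of 75 such genes measured, 15 were called lower and 1 higher at 6.7 Gy on day 4, and 31 lower and 2 higher at 7.4 Gy. On day 7 none was called at either dose by limma or by the methods' t-test (3 and 3 before adjustment), and on day 12 none after 6.7 Gy (0 before adjustment) and 1 lower after 7.4 Gy by limma and 0 by the methods' t-test (EZR, ezrin, which links the brush border membrane to actin; chosen after its value was seen, log2 -1.22).

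**Figure D5:**
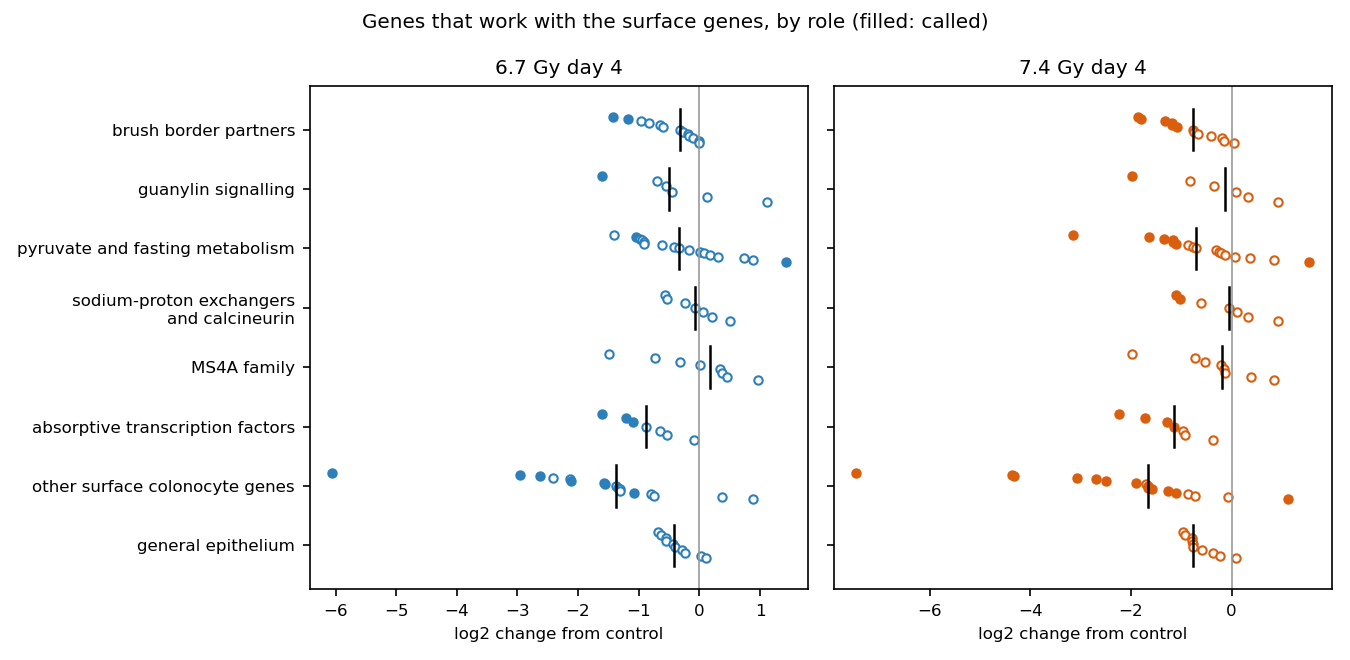
Log2 change from control on day 4 of genes grouped by role and of general epithelial markers (filled, called at adjusted p under 0.05 with 2-fold change; open, not called; bar, median of the list), with 6.7 Gy left and 7.4 Gy right. Other surface genes reach -6.05 and -7.46 (CA1, dim values as measured), and no general epithelial marker is called.

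Among 17 other genes of surface colonocytes, 8 were called lower at 6.7 Gy and 12 at 7.4 Gy, and 1 was called higher at 7.4 Gy. Their median log2 change was -1.37 and -1.67. CA1, a carbonic anhydrase of the colon surface, fell by 6.05 at 6.7 Gy and by 7.46 at 7.4 Gy (adjusted limma p of 0.00129 and 5.91e-05), from a control mean of 0.93 ± 0.31 (SD, n = 4), and it was well above background in 2 and 1 of the 4 animals. Its changes were -3.98 and -4.35 with normexp background correction. With array position as a block they were -4.61 and -4.59, and the call at 7.4 Gy was lost (adjusted limma p of 0.0727, the highest of a range from 8.19e-06 over the alternatives). SLC26A3, the chloride-bicarbonate exchanger whose loss causes congenital chloride diarrhoea, fell by 2.96 (3 animals measured) and 4.32. The position block and the methods' t-test lost both of its calls, and the one at 6.7 Gy was also lost with a slide block and without control replicate 1 or 4 or 6.7 Gy replicate 2 or 4. PLAC8 rose at 7.4 Gy by 1.12 (adjusted limma p of 0.0466) and had 0.38 at 6.7 Gy; without control replicate 1 these were 0.70, not called, and -0.04, and its call was lost under 7 other settings and on leaving out 6 of the 8 animals in turn.

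Guanylin signalling had 6 measured genes. GUCY2C, the receptor of both peptides, fell by 1.60 at 6.7 Gy and by 1.98 at 7.4 Gy (adjusted limma p of 0.0265 and 0.00398). The call at 6.7 Gy was lost with a slide block, by the methods' t-test, and without control replicate 1 or 3 or 6.7 Gy replicate 1 or 2, with changes from -1.97 to -1.30 over the alternatives. No other gene of the list was called, CFTR included, which carries the chloride secreted on this signal and had changes of -0.45 and -0.82. The median of the list was -0.50 and -0.13, and on days 7 and 12 no member was called.

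Brush border partners numbered 13. CDHR2, the cadherin that pairs with CDHR5 between microvilli, fell by 1.42 and 1.85. MYO1A, the myosin that joins microvillar actin to the membrane, had -0.96 at 6.7 Gy, which was short of 2-fold, and fell by 1.80 at 7.4 Gy. In all 2 and 6 of the 13 were called lower, with list medians of -0.32 and -0.77. CDHR2 lost its call at 6.7 Gy under 9 of the other settings and on leaving out any of the 8 animals but 6.7 Gy replicate 3, and at 7.4 Gy under 3 other settings.

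The list of pyruvate and fasting metabolism, which fits PCK1 and PDK4, had 17 measured genes and moved both ways. At 6.7 Gy 1 was called lower and 1 higher, and at 7.4 Gy 6 were called lower and 1 higher. PPARG, a nuclear receptor abundant in colonocytes, fell by 1.05 and 1.65, the first a call lost under 4 other settings and without control replicate 4 or 6.7 Gy replicate 2. ANGPTL4, which like PDK4 is a known target of fatty acid receptors, rose by 1.42 and 1.55 (adjusted limma p of 0.0079 and 0.0018), the direction that PDK4 had. These calls were lost under 3 and 1 other settings, with 0.94 at 6.7 Gy after normexp correction. PDP1, a phosphatase that opposes PDK4, had 0.74 and 0.85 and stayed short of 2-fold.

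Transcription factors of absorptive cells had 7 measured genes with median changes of -0.88 and -1.14, and 3 and 4 were called lower. VDR, the vitamin D receptor, fell by 1.60 and 2.24, and HNF4G, a nuclear receptor of enterocyte identity, fell by 1.09 and 1.73. The HNF4G call at 6.7 Gy was lost under 4 other settings, normexp among them (-0.69), and without control replicate 1, 3 or 4 or 6.7 Gy replicate 2 or 4. Sodium-proton exchangers and calcineurin subunits, which share partners with CHP2, had 7 measured genes with medians of -0.07 and -0.05. None was called at 6.7 Gy and 2 were called lower at 7.4 Gy. SLC9A2, an exchanger, had -0.24 at 6.7 Gy and fell by 1.02 at 7.4 Gy, a call lost under 6 other settings and without control replicate 2 or 7.4 Gy replicate 3. CHP1, the near relative of CHP2, had -0.54 and -0.61 and was not called. Of 8 measured MS4A genes none was called on any day, with medians of 0.18 and -0.19 on day 4.

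Of the 10 general epithelial markers none was called in any group. Their mean change per animal ran from -0.74 to -0.18 at 6.7 Gy and from -0.73 to -0.49 at 7.4 Gy on day 4, against -0.19 to 0.08 in controls. Less this mean, the median change of the 9 genes was -1.70 and -2.86. CHP2, PCK1, TMIGD1 and GUCA2B each lay at -2.99 or lower relative to it at both doses, while CDHR5 was -0.35 and -0.63 relative to epithelium.

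Other cell types moved on the same days. Their day 4 counts stand beside shares over all genes of 1.89% lower and 2.36% higher at 6.7 Gy, and 3.99% and 4.24% at 7.4 Gy. Of 9 measured goblet cell genes, 1 and 4 were called lower on day 4, with list medians of -0.41 and -0.71. All 9 had negative changes at 6.7 Gy (-1.32 to -0.04), and at 7.4 Gy changes ran from -2.17 to 0.65. ATOH1, which starts the secretory lineage, fell by 1.32 (a call lost under 7 other settings and on leaving out 6 of the 8 animals) and 2.17. ST6GALNAC1, a mucin sialyltransferase, fell by 1.71 at 7.4 Gy. Of 7 enteroendocrine genes none was called at 6.7 Gy, and 2 were called lower and 1 higher at 7.4 Gy. INSL5 and PYY, gut hormones of the distal bowel, fell by 3.45 and 1.60, and CHGB, a granule protein, rose by 1.19. Of 9 crypt base genes only ASCL2, a stem cell factor, was called at 7.4 Gy, higher by 1.05, and none was called at 6.7 Gy. The INSL5 and PYY calls were each lost with the position block and by the methods' t-test, and INSL5 had -1.41 with normexp. The CHGB call was lost under 4 other settings and without control replicate 4 or 7.4 Gy replicate 3, and that of ASCL2 under 3 and without control replicate 2 or 7.4 Gy replicate 2.

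Outside the epithelium, 3 of 7 fibroblast genes were called higher at 7.4 Gy on day 4. Among them COL1A2 rose by 1.78 and COL6A3 by 1.43, both collagen chains. Of 6 endothelial genes only VWF was called, higher by 1.23 (3 animals measured). S100A8 and S100A9, calcium-binding proteins abundant in neutrophils, rose by 3.61 and 2.23, 2 of the 3 measured genes of that list, while CSF3R had -0.42. The S100A8 call was lost under 3 other settings and without control replicate 1, 3 or 4 or 7.4 Gy replicate 3, and it had 2.06 with normexp. The S100A9 call was lost under 4 other settings and without 7.4 Gy replicate 3 (1.47). Those of COL1A2 and VWF were lost with the position block, and that of VWF also with normexp (0.95). No gene of smooth muscle (4 measured), macrophages (4), T lymphocytes (7) or B and plasma cells (6) was called in any group, with per-animal means on day 4 between -1.32 and 0.59. At 6.7 Gy on day 4 none of these non-epithelial genes was called. On day 7 the T lymphocyte list had medians of -1.16 and -1.04 and the B and plasma cell list -0.94 and -1.12, with no gene called by limma (9 and 8 of all 72 marker genes before adjustment). The part of these cell types in the levels of the 9 genes was not tested.

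By a rule on likeness, the 6 named genes of 12721 whose level followed the mean of the 9 scaled genes most closely over the 24 arrays were ITM2C, SIPA1L3, PLD1, MXI1, ANXA13 and LGALS4, with Pearson r from 0.952 to 0.960. Their log2 changes on day 4 ran from -1.67 to -0.80 at 6.7 Gy and from -2.86 to -1.22 at 7.4 Gy, ANXA13 (an intestinal annexin) being lowest. The 6 that followed it most closely in deviations of animals from their group means were HSD17B2, NR1H4, SULT1B1, BEST4, PLD1 and DHRS7C, with r from 0.828 to 0.877. These points share arrays and scaling, and the values are a description. NR1H4, the bile acid receptor FXR, ranked 8 by level and 2 by deviation, and had -1.47 and -2.12 on day 4 and -0.04 at both doses on day 7. BEST4, a channel that marks a distinct absorptive cell of the colon, had -1.20 and -2.57 on day 4 and -1.01 and -1.80 on day 7.

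Within groups the 9 genes were linked to different degrees. Over the 36 pairs the r of deviations from group means had a median of 0.29 and ran from -0.26 to 0.93. GUCA2A, GUCA2B, CHP2, PCK1 and TMIGD1 had pairwise values from 0.63 to 0.93. MS4A12 and PDK4 had -0.26 with each other, and VIL1 and CDHR5 had 0.28.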

How the data were processed

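Cy3-labelled colon RNA was hybridised to 1-colour Agilent macaque arrays. The authors deposited scanner files with the spot intensity after background subtraction, with flags, and a table of log2 values scaled to the 75th percentile. Here the log2 processed signal was scaled to each array's 75th percentile, uneven spots were left out, spots of a probe were averaged, and of 43603 probes the 38220 well above background on at least 2 arrays were kept (38200 fitted). No value was saturated. Group means over 24 arrays were fitted with limma 3.58.1 in R 4.3.3, adjusted by Benjamini-Hochberg over all probes, and the procedure was tested on simulated data. A gene is represented by its brightest probe. The deposited table named 18640 probes, and accessions or gene numbers named 3268 more. A limma p-value sets a difference between group means against the spread of animals within groups. That spread is taken over all 24 arrays and drawn toward that of other probes. The number of animals limits the precision.

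Members and lists were chosen with earlier results of these data known. Besides the 9 genes, the rule named per list up to 2 called genes that fell most and 2 that rose most on day 4, and the 6 genes most alike by each measure; CFTR, PDP1, CHP1, CSF3R, EZR and the examples of epithelial markers were added after their values were seen. Some genes that the rule names are not reported here. A protocol text gives day 21 where sample labels give day 12, which was followed. Alternatives covered background correction, scaling, filter, blocks, the methods' t-test and leaving out each array. Coordinates and sequences were not used here.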

Additional observations from a re-analysis of the deposited data

Results flagged for a closer look

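In the 75 groups of 4 animals checked over the 14 probes and the median of the genes, a lone animal stood apart from the other three in 7, by a gap divided by the range above the value that chance gives in about 1 group in 20. In 6.7 Gy day 4 replicate 4 was lowest for TMIGD1 (0.852) and GUCA2A (0.840) and so for the median of the 9 genes (0.840), and replicate 2 was lowest for VIL1 (0.842) and CDHR5 probe 3 (0.873). In 6.7 Gy day 7 replicate 2 was lowest for CHP2 (0.835). Among controls replicate 2 had the lowest median of the 9 genes (0.946), at -0.25 against 0.05 to 0.07 in the others.

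On day 12 both 6.7 Gy animals lay above the control mean and both 7.4 Gy animals below it for PCK1 (log2 difference between doses -1.15) and TMIGD1 (-1.75). Whether this differed from the dose effect of other days was not shown: the dose difference itself had adjusted limma p of 0.999 for each gene.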

How the results depend on the processing

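The day 4 and day 7 medians of the 9 genes kept their direction under each alternative and moved by less than 1 SD between animals, from -2.10 to -1.69 (6.7 Gy) and from -3.71 to -2.70 (7.4 Gy) on day 4, and no called value turned its direction. On day 12 the medians are near 0. After 6.7 Gy they were 0.45 with normexp, 0.52 with spike-in scaling, 0.20 with the deposited table, 0.0681 with a slide block, 0.10 with a scan day block and 0.35 with a replicate block; after 7.4 Gy they were 0.27, -0.12 and -0.0574 with spike-in scaling, a scan day block and a replicate block. Spike-in scaling moved the median of all genes against control by 0.12 to 0.29 and normexp by -0.0957 to -0.0107.

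Probes called between doses on day 4 numbered 1 with normexp, quantile normalization or a replicate block and 94 with array position as a block; 1 was called on day 7 by the methods' t-test and 1 on day 12 with the position block. The 1 probe of the change from day 4 to day 7 was lost (0) with normexp, spike-in scaling, slide, scan day or replicate block, or only the groups compared. Companion genes called numbered 9 (slide block) and 6 (methods' t-test) in place of 16 at 6.7 Gy on day 4, 1 with normexp at 7.4 Gy on day 7, and 0 in place of 1 on day 12 with normexp, spike-in scaling, replicate block, only the groups compared or the methods' t-test.

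Leaving out 1 array gave 0 to 18, 0 to 0 and 1 to 15 probes between doses on days 4, 7 and 12, 0 to 2 and 0 to 7 for the changes to days 7 and 12, companion counts of 8 to 18 and 28 to 33 on day 4 (the 8 without 6.7 Gy replicate 2), 0 to 0 and 0 to 1 on day 7 and 0 to 0 and 0 to 1 on day 12, and medians of -2.23 to -1.69, -4.05 to -2.89, -0.31 to -0.09, -1.16 to -0.38, 0.13 to 0.39 and -0.0826 to 0.0353. Day 12 without 1 animal leaves a dose with a lone animal, assumed to vary like the other groups. Without 6.7 Gy day 4 replicate 2 the dose contrast of day 4 called 18 probes, and without 6.7 Gy day 12 replicate 2 that of day 12 called 15. Differences that turned were TMIGD1 between doses on day 4 (0.31 with the position block), MS4A12 (0.0421 with spike-in scaling, -0.19 to 0.15 leaving out 1 array) and PLAC8 at 6.7 Gy (-0.0448 to 0.65). The cause of these changes was not tested. With array position as a block, days 7 and 12 against control could not be estimated. The replicate block pairs animals by number; same-numbered animals deviated together (r over 0.1) in 7 of 40 pairs, from -0.23 to 0.24, so the numbers do not pair them. With array signal, probes near background (TMIGD1, CDHR5 probe 3, PDK4 probe 2) limit what can be seen of low levels.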
